A study of Rattus norvegicus with 2 samples.

Results

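Serpins are a family of proteins with one shared fold, most of which inhibit serine proteases. To follow this family in bladder carcinomas of rats given dimethylarsinic acid (DMA), every gene of the array whose symbol was that of a serpin of clades A to I was taken from the probe sets with 1 gene symbol. Where a gene had more than 1 such probe set, that with the highest mean over both arrays stood for it. This gave 46 serpin genes of 22093 genes. Of these, 16 reached a signal of 100 on 1 or both arrays, as did 12074 of all genes, and such genes are called kept below. The other 30 serpins had a signal under 100 on both arrays and are given as a group.

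The data came from 2 arrays. The DMA-tumor array held RNA pooled from 6 bladder carcinomas of male F344 rats that drank water with 200 ppm DMA for 2 years from 10 weeks of age. The Control array held RNA pooled from 5 bladders of male F344 rats on water with 0 ppm DMA, and both groups are labelled 114 weeks old. The design text speaks of carcinomas and of control epithelium, whereas the methods give 1 tumor fewer, speak of bladder tissue for the controls and state that the carcinomas were not examined by histology. Each group had 1 pooled array, so neither a replicate error nor a p-value can be given for any difference, and having only 2 arrays limits the precision of every value. In pooled tissue RNA, fewer cells of a type and less RNA per cell cannot be told apart.

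The labelled tissue was set against markers. All 8 urothelial differentiation markers were kept, and all were at least 2-fold lower on the DMA-tumor array, beside 10.5% of all kept genes. Their summed signals were 502924 on the DMA-tumor array and 1942298 on the Control array. Of 8 fibroblast markers, 7 were called lower by the criteria given below, beside 2.37% of all kept genes. The 8 had summed signals of 1493 on the DMA-tumor array and 150741 on the Control array. Connective tissue markers were thus high on the array labelled as control epithelium. All 6 smooth muscle markers were called lower as well, beside the same 2.37%. Their summed signals were 4184 and 55666 on the DMA-tumor and Control arrays. Among these lower markers, Krt20, Lum, Pdgfra, Dpt, Des and Cnn1 were kept through the Control array alone and could only be lower on the DMA-tumor array. Of 7 basal and squamous keratinocyte markers, 6 were called higher, beside 2.53% of all kept genes. The 7 had summed signals of 193900 and 18389 on the DMA-tumor and Control arrays. Among the 6, Krt16 and Dsg3 were kept through the DMA-tumor array alone and could only be higher there. The part of these marker shifts in the serpin values was not tested.

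An inhibitory serpin presents an exposed loop as bait. When the protease cleaves it, the loop inserts into the body of the serpin, and the protease is left distorted and covalently trapped. Clade B serpins mostly lack a signal peptide and act inside cells, many of them in epithelia and leukocytes, whereas most members of the other clades are secreted and control coagulation, fibrinolysis, complement or hormone transport. A few serpins, among them Serpinb5, Serpinf1 and Serpinh1, do not inhibit proteases.

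The signals turned in opposite directions within 1 short stretch of chromosome 13, and Serpinh1 was lower alongside the type I and type III collagens that it helps to fold, so the start regions of Serpinb2, Serpinb5, Serpinb7 and Serpinh1 are shown. Each window holds 300 bases from RefSeq on the GRCr8 build, 250 before and 50 from the annotated start onwards, and capitals mark matches to any of 7 motifs on either strand. The windows lie at chr13:24055771-24056070 on the plus strand for Serpinb2, at chr13:23499953-23500252 on the plus strand for Serpinb5, at chr13:23910056-23910355 on the plus strand for Serpinb7 and at chr1:163062927-163063226 on the minus strand for Serpinh1.
Serpinb2: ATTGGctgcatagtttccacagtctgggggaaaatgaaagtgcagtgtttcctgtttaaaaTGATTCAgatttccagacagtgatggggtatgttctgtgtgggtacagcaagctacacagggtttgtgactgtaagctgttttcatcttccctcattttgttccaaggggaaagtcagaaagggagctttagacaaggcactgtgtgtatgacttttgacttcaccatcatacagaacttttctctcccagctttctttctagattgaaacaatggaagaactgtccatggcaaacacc
Serpinb5: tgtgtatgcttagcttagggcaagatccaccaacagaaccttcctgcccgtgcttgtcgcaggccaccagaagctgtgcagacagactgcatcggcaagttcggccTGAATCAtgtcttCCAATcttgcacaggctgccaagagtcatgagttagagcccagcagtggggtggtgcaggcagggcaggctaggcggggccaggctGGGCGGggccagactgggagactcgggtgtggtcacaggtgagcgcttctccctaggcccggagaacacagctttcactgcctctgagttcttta
Serpinb7: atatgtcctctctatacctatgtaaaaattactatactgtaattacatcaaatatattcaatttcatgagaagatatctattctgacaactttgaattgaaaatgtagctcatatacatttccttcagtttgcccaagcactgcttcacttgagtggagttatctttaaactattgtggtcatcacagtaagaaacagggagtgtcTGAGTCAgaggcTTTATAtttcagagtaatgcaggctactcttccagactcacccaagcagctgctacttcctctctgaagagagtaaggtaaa
Serpinh1: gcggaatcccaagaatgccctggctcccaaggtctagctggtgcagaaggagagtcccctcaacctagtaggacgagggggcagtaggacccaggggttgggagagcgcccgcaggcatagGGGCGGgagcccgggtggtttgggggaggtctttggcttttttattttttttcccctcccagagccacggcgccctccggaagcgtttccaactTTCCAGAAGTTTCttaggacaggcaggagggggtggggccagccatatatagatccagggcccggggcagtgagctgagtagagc

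The 7 motifs were the TATA box TATAAA, the CCAAT box CCAAT, the GC box GGGCGG, the AP-1 site TGANTCA, the antioxidant response core TGACNNNGC, the interferon gamma activated site TTCNNNGAA and the heat shock element GAANNTTCNNGAA. AP-1 and antioxidant response letters can overlap. The AP-1 letters began 189 bases before the start of Serpinb2, 144 before that of Serpinb5 and 44 before that of Serpinb7, and 7.33% of all 33469 windows held them. Serpinb2 and Serpinb5 were higher and Serpinb7 was lower on the DMA-tumor array, so the letters stood before genes that differed in both directions. Only these 3 of 16 windows of kept serpins held AP-1 letters. Serpinb1b and Serpinb6a each had more than a single window among the 16. The window of Serpinb10, which was also at least 2-fold higher, held none of the 7 motifs. Serpinb8 and Serping1 had no window and were not searched. The heat shock letters, present in 0.798% of all windows, lay on the minus strand of the Serpinh1 window beginning 35 bases before its start. No other serpin window held them. The windows shown are thus, among kept serpins that had a window, those with AP-1 or heat shock letters. The other capitals are a CCAAT box in Serpinb2 and in Serpinb5, a GC box in Serpinb5 and in Serpinh1 and a TATA box in Serpinb7, letters found in 37.5% (CCAAT), 33.1% (GC) and 14.2% (TATA) of all windows. Among 41 windows of 38 serpin genes, AP-1 letters were in 5, antioxidant response letters in 5, against 12.1% of all windows, and interferon gamma activated letters in 7, against 8.87% of all windows. A match is a run of letters and does not show binding.

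**Figure D1:**
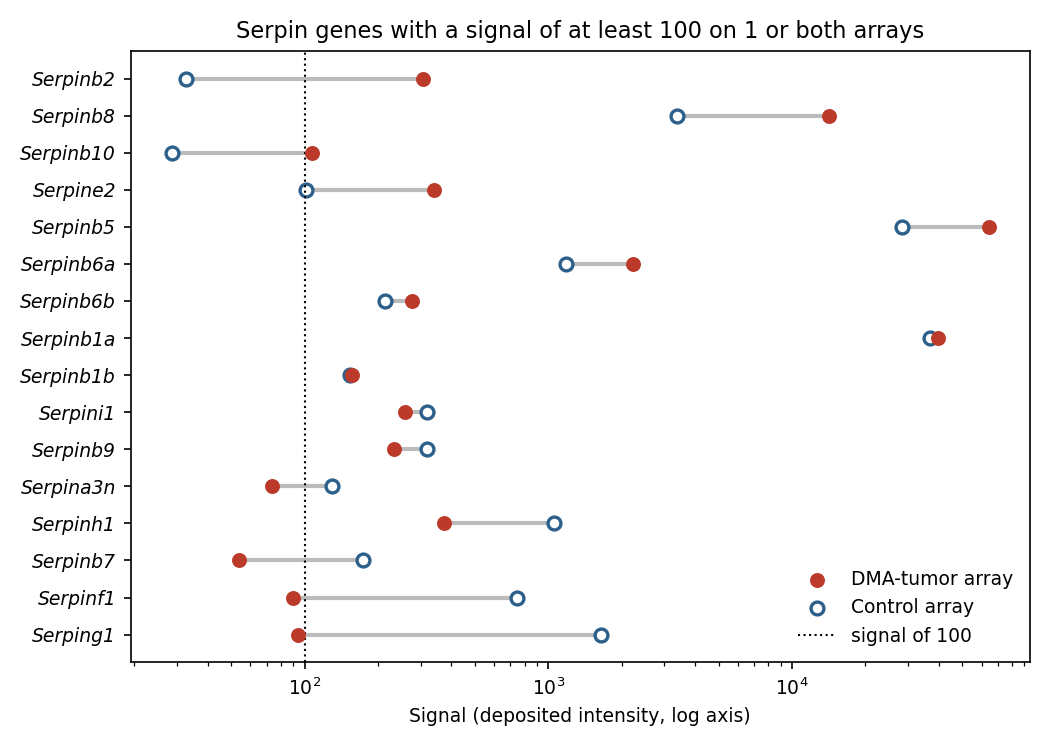
Signals of the 16 serpin genes with at least 100 on 1 or both arrays (log axis, array signal units), with the DMA-tumor array and the Control array as separate points for each gene. Serpinb2 and Serping1 have the widest gaps, in opposite directions, and Serpinb1b has almost none (156 on the DMA-tumor array, 154 on the Control array).

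Across the kept serpins, the differences ran from 3.23 for Serpinb2 to -4.13 for Serping1 on the log2 scale, DMA-tumor minus Control. A gene was called higher at a ratio of 2 or more together with a Z-score over all kept genes of 2 or more, and called lower at a ratio of 0.5 or less together with a Z-score of -2 or less. On the log2 scale a call needed 1.97 or more, or -2.11 or less. By this rule 2 of 16 kept serpins were called higher, beside 2.53% of all kept genes. These were Serpinb2 and Serpinb8, both of clade B. Serping1 and Serpinf1, which are secreted, made up the 2 of 16 called lower, beside 2.37% of all kept genes. Serpinb2 reached 100 on the DMA-tumor array alone, and Serping1 and Serpinf1 reached it on the Control array alone. Each of these could only be called in that direction.

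By ratio alone, 5 serpins were at least 2-fold higher (Serpinb2, Serpinb8, Serpinb10, Serpine2 and Serpinb5), beside 8.87% of all kept genes. In the other direction 4 were at least 2-fold lower (Serping1, Serpinf1, Serpinb7 and Serpinh1), beside 10.5% of all kept genes. The higher ones include 2 that reached 100 on the DMA-tumor array alone, and the lower ones include 3 that reached it on the Control array alone, and these could only differ in that direction. Of the 10 serpins with at least 100 on both arrays, 3 were at least 2-fold higher (Serpinb8, Serpine2 and Serpinb5), beside 7.06% of genes kept in that way. Serpinh1 was the 1 of these 10 that was at least 2-fold lower, beside 8.83% of genes kept in that way. The remaining 6 were within 2-fold.

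The median log2 difference of the kept serpins was 0.06, beside -0.08 over all kept genes, and it turned negative under quantile normalization (-0.43) and after removal of a loess trend (-0.24). The middle of the family thus had no settled direction, and the family was split between members. The 10 kept clade B serpins had a median of 0.64, with 8 positive and 2 negative differences, but Serpinb2, Serpinb10 and Serpinb7 were kept through 1 array only. This median was 0.36 with at least 100 on both arrays, 0.39 after loess removal, 0.28 after quantile normalization and 0.13 without a filter on signal. The 5 kept members of the secreted clades had a median of -0.81, with 1 positive and 4 negative, but 3 of those 5 were under 100 on the DMA-tumor array. It turned to 0.72 with at least 100 on both arrays, where Serpine2 and Serpini1 alone were kept, and was -0.049 without a filter.

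**Figure D2:**
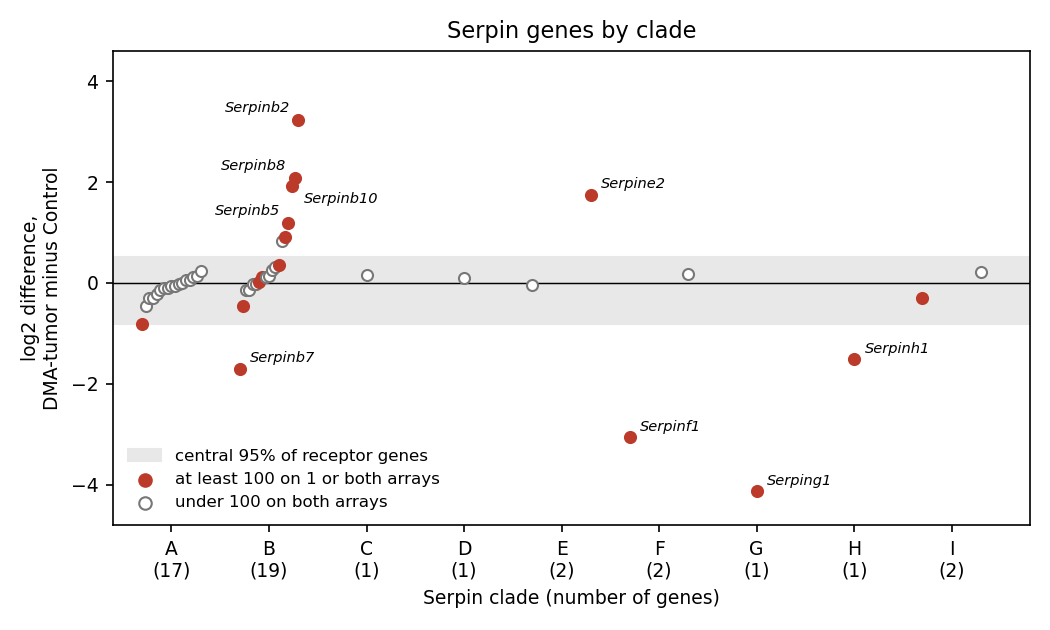
Log2 difference, DMA-tumor minus Control, of all 46 serpin genes by clade, with filled points for the 16 kept genes and open points for the 30 under 100 on both arrays, and a grey band for the central 95% of olfactory and vomeronasal receptor genes. Clade B spreads from -1.70 to 3.23. Clades A, F, G, H and I have 1 kept gene each, and these lie under 0. Those of A, F and G reached 100 on the Control array alone and so could only lie there.

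On chromosome 13 the clade B genes stand in the order Serpinb5, Serpinb12, Serpinb13, Serpinb3a, Serpinb3, Serpinb11, Serpinb7, Serpinb2, Serpinb10 and Serpinb8. Of these 10 genes 5 were kept, Serpinb2, Serpinb10 and Serpinb7 through 1 array only, and the median log2 difference over all 10 was 0.49. All 4 of the clade B serpins that were at least 2-fold higher lie here, as does the 1 that was at least 2-fold lower.

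Serpinb2 inhibits urokinase and tissue plasminogen activator in vitro and is known from human macrophages and keratinocytes. Its signal was 306 on the DMA-tumor array and 32.7 on the Control array. It was thus at or above 100 in the carcinoma pool only, at least 3.06-fold higher with the low signal raised to 100. The measured log2 difference was 3.23, and Serpinb2 was called higher. With low values raised to 100 the difference was 1.61 and the gene was no longer called.

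Serpinb8, whose human protein inhibits the proprotein convertase furin, had a signal of 14209 on the DMA-tumor array and 3373 on the Control array. Both signals were far above 100, and the DMA-tumor signal was 4.21-fold higher, a log2 difference of 2.07. Serpinb8 lay close to the threshold of the call. It was not called after removal of a loess trend, where its difference was 1.78, or with Z-scores taken within signal bins. Furin itself had signals of 5534 and 1920 on the DMA-tumor and Control arrays (log2 difference 1.53).

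Serpinb10, known in humans as a serpin of blood-forming cells, had a signal of 107 on the DMA-tumor array and 28.5 on the Control array. The first is just above 100 and the second well under it, so the difference was at least 1.07-fold with the low signal raised, although the measured log2 difference was 1.91. Serpinb10 was not called, but it was called higher without a filter, with a filter of 32, after quantile normalization and after loess removal.

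Serpinb5, or maspin, is an epithelial serpin that does not inhibit proteases and was described in human breast as a tumor suppressor. Its signal was 64307 on the DMA-tumor array and 28301 on the Control array. The carcinoma pool was 2.27-fold higher (log2 difference 1.18), which did not meet the Z-score. Under quantile normalization the difference was 0.54, and it was 0.49 after removal of a loess trend.

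Serpinb7 went the other way. It was first described in human kidney mesangium, and its loss in humans causes a disease of palm and sole skin. Its signal was 53.7 on the DMA-tumor array and 174 on the Control array, at least 1.74-fold lower with the low signal raised to 100. The measured log2 difference was -1.70, and Serpinb7 was called lower only when no filter on signal was used.

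The other 5 genes of this stretch were under 100 on both arrays. Serpinb3a had 67.1 on the DMA-tumor array and 37.5 on the Control array. Its log2 difference of 0.84 was the only one among the 30 low serpins outside the central 95% of receptor genes, which ran from -0.81 to 0.52. Those 1278 olfactory and vomeronasal receptor genes, nearly all under 100 here, showed how much low signals varied between the arrays (SD 0.34).

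Next to this stretch, the 3 nearest kept genes before Serpinb5 were Bcl2 (log2 difference -0.87), Kdsr (0.05) and Vps4b (-0.18). After Serpinb8 came Mat2al1 (1.37), Esco1-ps1 (0.05) and Tsn (-0.01). Of these 6 neighbours, 1 was at least 2-fold higher, beside 8.87% of all kept genes, and none was at least 2-fold lower, beside 10.5%. Basal and squamous keratinocyte markers were higher on the same array as Serpinb2, Serpinb8 and Serpinb5, by 10.5-fold in summed signal. Not all genes of the stretch went that way, as Serpinb7 was lower and 5, among them Serpinb3, Serpinb12 and Serpinb13, were under 100 on both arrays. Macrophage markers had summed signals of 1357 and 1955 on the DMA-tumor and Control arrays. None of 6 was called, beside 2.53% of all kept genes called higher and 2.37% called lower. The part of either cell type in the serpin signals was not tested.

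**Figure D3:**
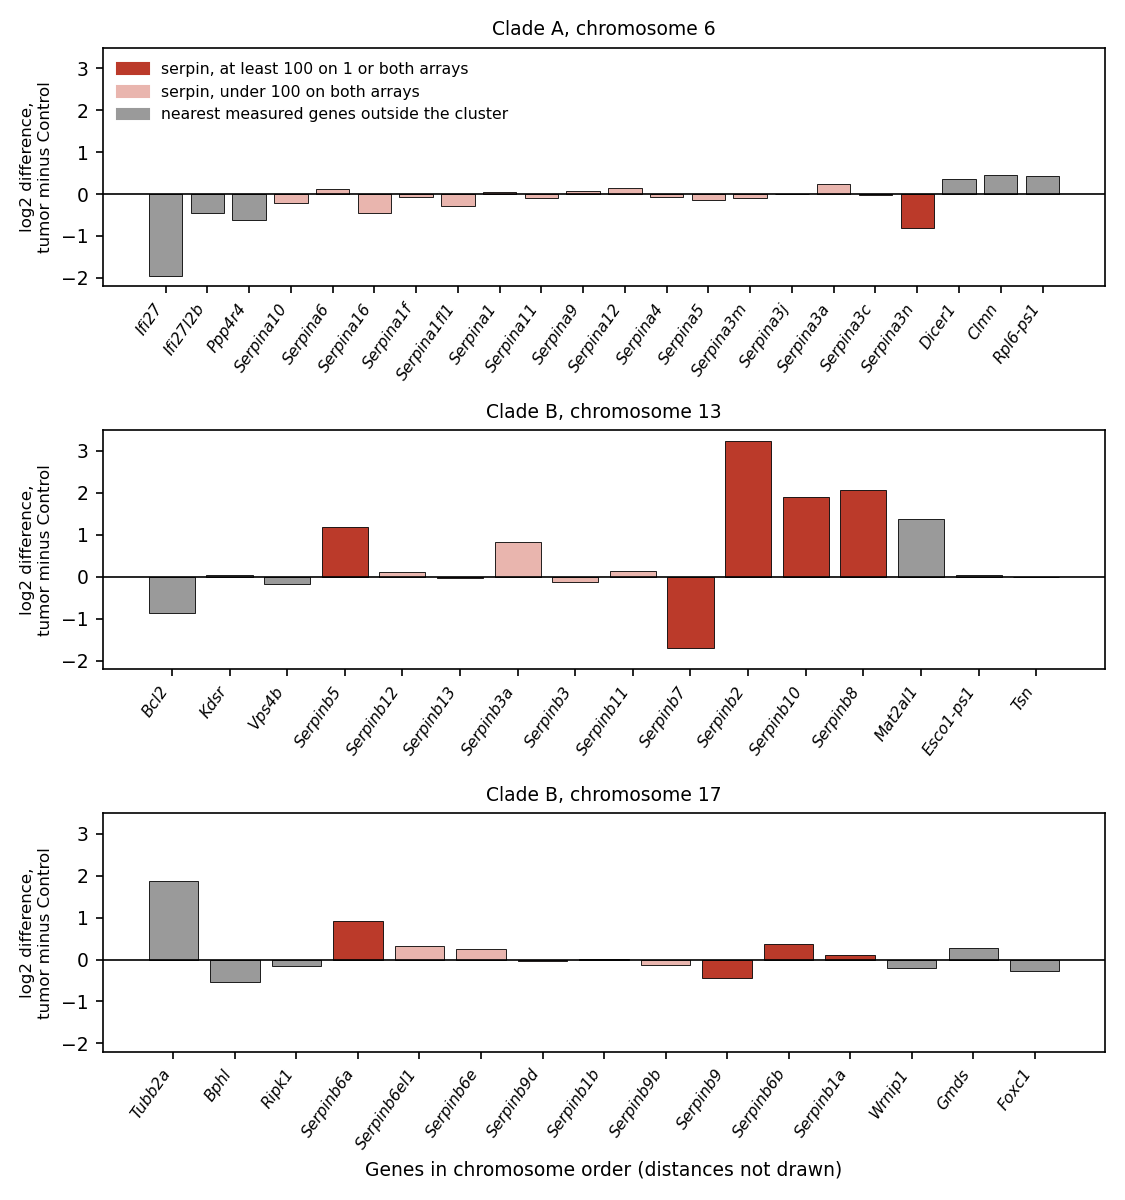
Log2 difference, DMA-tumor minus Control, of serpin genes in their order along chromosomes 6, 13 and 17 (x axis, order only, distances not drawn), dark where kept and pale where under 100 on both arrays, with the 3 nearest kept genes on each side in grey. On chromosome 13 Serpinb7 at -1.70 stands directly beside Serpinb2 at 3.23, whereas the serpins on chromosome 17 stay between -0.45 and 0.92.

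The clade B genes on chromosome 17 differed less. Of 9 genes 5 were kept, and the median log2 difference was 0.11. None of the 5 was at least 2-fold higher, beside 8.87% of all kept genes, or at least 2-fold lower, beside 10.5%. Several of these genes are close copies of one another in rodents, so probes may not tell all of them apart.

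Serpinb1a, the counterpart of the human inhibitor of neutrophil elastase, cathepsin G and proteinase 3, had a signal of 39729 on the DMA-tumor array and 36804 on the Control array. The signals were high and differed by 1.08-fold. The log2 difference was 0.11 and turned to -0.53 under quantile normalization and -0.56 after removal of a loess trend. Its paralog Serpinb1b had signals of 156 and 154 on the DMA-tumor and Control arrays (log2 difference 0.02), a value whose sign also turned under those settings and under centring of the arrays on their medians.

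Serpinb6a corresponds to a human inhibitor of cathepsin G that is needed in the inner ear. Its signal was 2223 on the DMA-tumor array and 1177 on the Control array, 1.89-fold higher in the carcinoma pool (log2 difference 0.92). This was the widest gap on chromosome 17. Serpinb6b had signals of 276 and 215 on the DMA-tumor and Control arrays, a 1.29-fold gap.

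Serpinb9, which protects cytotoxic lymphocytes from their own granzyme B in humans and mice, was slightly lower. Its signal was 233 on the DMA-tumor array and 318 on the Control array, 1.37-fold lower (log2 difference -0.45). Granzyme B (Gzmb) was under 100 on both arrays. Of 6 T and NK cell markers 2 were kept, 1 of them called lower, beside 2.37% of all kept genes. The part of lymphocytes in the Serpinb9 signal was not tested.

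Among the secreted serpins, Serpine2 was the only kept one with a higher signal in the carcinoma pool. Also called protease nexin, it inhibits thrombin and urokinase at cell surfaces. Its signal was 340.0 on the DMA-tumor array and 101 on the Control array, 3.36-fold higher, with the Control signal just above 100. The log2 difference of 1.75 missed the Z-score among all kept genes, but Serpine2 was called higher without a filter on signal, with a filter of 32, and among genes with at least 100 on both arrays.

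Plasminogen activation is a target system of Serpinb2 and Serpine2. All 5 kept members of 6 had positive differences, with a median of 0.75, beside 5361 of 12074 kept genes with a positive difference. Of these 5, 2 were at least 2-fold higher, beside 8.87% of all kept genes, and 1 was called higher, beside 2.53%. Plaur, the urokinase receptor, was called higher, with 1377 on the DMA-tumor array and 347 on the Control array (log2 difference 1.99). Plau, or urokinase, had signals of 844 and 275 on the DMA-tumor and Control arrays (1.62) and was not called. Plat, or tissue plasminogen activator, had signals of 5890 and 4227 on the DMA-tumor and Control arrays (0.48). Plasminogen itself (Plg), made mainly in liver, was under 100 on both arrays.

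In coagulation, 6 of 15 measured genes were kept, with differences on both sides. Procr, the endothelial protein C receptor, was called higher with 862 on the DMA-tumor array and 215 on the Control array. F3, or tissue factor, had 648 on the DMA-tumor array and 166 on the Control array (log2 difference 1.96) and was not called. Pros1, or protein S, had signals of 104 and 392 on the DMA-tumor and Control arrays (-1.92). F13a1, which crosslinks fibrin, had signals of 71.0 and 260 on the DMA-tumor and Control arrays (-1.87).

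Serpini1, or neuroserpin, inhibits tissue plasminogen activator in the nervous system. Its signal was 259 on the DMA-tumor array and 319 on the Control array, 1.23-fold lower. This log2 difference of -0.30 was smaller than the SD of the receptor genes.

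Serping1 had the lowest difference of all serpins. It blocks the C1r and C1s proteases that start the classical complement pathway, as well as plasma kallikrein, and its loss in humans causes hereditary angioedema. Its signal was 94.2 on the DMA-tumor array and 1646 on the Control array. It was at least 16.5-fold lower with the low signal raised to 100, and the measured log2 difference was -4.13. Serping1 was called lower under every setting that kept it, and only the filter of 100 on both arrays removed it.

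Its complement targets C1r and C1s were lower as well. C1r had 142 on the DMA-tumor array and 3344 on the Control array, 23.5-fold lower. C1s had 51.4 on the DMA-tumor array and 3388 on the Control array, at least 33.9-fold lower. Both were called lower, and Cfd, which acts in the alternative pathway, had signals of 101 and 192 on the DMA-tumor and Control arrays (log2 difference -0.93) and was not called. Plasma kallikrein (Klkb1), another target, had signals of 127 and 124 on the DMA-tumor and Control arrays (log2 difference 0.04), so the lower signals did not extend to it.

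Serpinf1, the pigment epithelium-derived factor, is a secreted serpin that restrains vessel growth and does not inhibit proteases. Its signal was 89.7 on the DMA-tumor array and 745 on the Control array. It was at least 7.45-fold lower with the low signal raised, the measured log2 difference was -3.05, and it was called lower under every setting that kept it. As for Serping1, the gene was under 100 in the carcinoma pool only.

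Serpinh1 stays in the endoplasmic reticulum, where it serves as a chaperone of procollagen. Its signal was 373 on the DMA-tumor array and 1058 on the Control array, 2.84-fold lower. The log2 difference was -1.51, and the gene was not called. Of 7 kept collagens, 3 differed by more than Serpinh1. Col1a1 had 381 on the DMA-tumor array and 35375 on the Control array, 92.8-fold lower. Col1a2 had 282 on the DMA-tumor array and 30588 on the Control array (108-fold lower), and Col3a1 had 327 on the DMA-tumor array and 15413 on the Control array (47.2-fold lower). The other 4 differed by less, with log2 differences of 0.86 for Col4a1, 0.48 for Col4a2, -0.80 for Col5a1 and -0.50 for Col5a2. The first 3 collagens were the only ones called among 15 kept genes of procollagen folding, beside 2.37% of all kept genes called lower, and the median log2 difference of the 15 was -0.49.

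The modifying enzymes did not share 1 direction. P4ha1, a subunit of the prolyl hydroxylase of collagen, had 3683 on the DMA-tumor array and 1259 on the Control array (log2 difference 1.55). Fkbp10, a collagen-binding prolyl isomerase, had signals of 153 and 376 on the DMA-tumor and Control arrays (-1.30). Serpinh1 at -1.51 thus stood closer to Fkbp10 than to Col1a1, Col1a2 and Col3a1. Apart from P4ha1, the other kept folding genes outside the collagens lay between -0.60 (P3h1) and 0.76 (P4hb). Fkbp10 was thus the only one near Serpinh1.

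Serping1, Serpinf1 and Serpinh1 are all expressed in fibroblasts, whose markers were lower on the same array. These 3 were picked by their direction, and Serpine2, also outside clade B, was higher on the DMA-tumor array (340.0, against 101 on the Control array). All 8 fibroblast markers had negative differences, with a median of -6.10 and a summed signal 101-fold lower, and Lum, Pdgfra and Dpt were under 100 on the DMA-tumor array. The part of fibroblasts in the 3 serpins was not tested.

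Clade A, which holds most of the serpins that the liver secretes into blood, was low on both arrays. Of 17 genes 16 were under 100 on both. Serpina3n, an acute phase serpin that inhibits granzyme B in mice, was the 1 exception, with 73.7 on the DMA-tumor array and 129 on the Control array. It was at least 1.29-fold lower with the low signal raised to 100, and its log2 difference of -0.81 was just beyond the edge of the receptor range. A further Serpina3n probe set was under 100 on both arrays (47.8 on the DMA-tumor array, 46.8 on the Control array), so averaging its probe sets removed the gene from those kept.

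The 30 serpins under 100 on both arrays had signals of 20.7 to 67.1 on the DMA-tumor array and 21.2 to 53.5 on the Control array. Their log2 differences ran from -0.45 to 0.84 with a median of -0.0095, and 29 of the 30 were inside the central 95% of receptor genes. They comprised 16 clade A, 9 clade B and 5 other genes. Among them were Serpina1, the elastase inhibitor of plasma, Serpinc1, or antithrombin, Serpind1, the dermatan sulfate-dependent thrombin inhibitor, and Serpinf2, the plasmin inhibitor of plasma. Serpina6 and Serpina7, the carriers of corticosteroids and thyroxine, were also low on both arrays. The rest of clade A here were Serpina10, Serpina11, Serpina12, Serpina16, Serpina1f, Serpina1fl1, Serpina3a, Serpina3c, Serpina3j, Serpina3m, Serpina4, Serpina5 and Serpina9. From clade B came Serpinb3, Serpinb3a, Serpinb6e, Serpinb6el1, Serpinb9b, Serpinb9d, Serpinb11, Serpinb12 and Serpinb13, and from clades E and I came Serpine3 and Serpini2.

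Hepatocyte markers were low as well. Of 7 measured, 5 were under 100 on both arrays, and albumin (Alb) had 35.4 on the DMA-tumor array and 33.0 on the Control array. A difference was not detectable at such signals for the 29 serpins inside the receptor range.

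The proteases that clade B serpins are known to inhibit were set beside them. Of 15 measured serine proteases of immune cell granules, 12 were under 100 on both arrays, including neutrophil elastase (Elane), cathepsin G (Ctsg) and proteinase 3 (Prtn3), and no neutrophil marker was kept. The 3 kept were mast cell proteases, of which Tpsb2 and Mcpt10 reached 100 on the DMA-tumor array alone and so could only be higher there. Tpsb2, a tryptase, had 393 on the DMA-tumor array and 83.0 on the Control array (at least 3.93-fold). Mcpt1, a chymase, had 720.3 on the DMA-tumor array and 181 on the Control array (3.98-fold), and both were called higher. Mcpt10, at least 1.80-fold higher, was not called. Mast cell markers, a list that holds both of these genes, had summed signals of 1884 and 485 on the DMA-tumor and Control arrays.

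Cysteine cathepsins are inhibited by some clade B serpins. Of 10 kept, 7 were at least 2-fold lower, beside 10.5% of all kept genes, and 1 was at least 2-fold higher, beside 8.87%, with a median log2 difference of -1.49. Among the 7, Ctsk and Ctsw reached 100 on the Control array alone. By ratio and Z-score, 1 cathepsin was called in each direction. Ctsl was called higher with 16174 on the DMA-tumor array and 2840 on the Control array (5.70-fold). Ctsh was called lower, with 1502 on the DMA-tumor array and 11454 on the Control array (7.63-fold).

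Membrane-bound and secreted serine proteases of epithelia differed in both directions. Of 22 measured 9 were kept, with 4 at least 2-fold higher, beside 8.87% of all kept genes, and 3 at least 2-fold lower, beside 10.5%. Among the 4, Hgfac reached 100 on the DMA-tumor array alone. Prss22 was called higher, with 46545 on the DMA-tumor array and 5981 on the Control array (7.78-fold), as was Htra1, with 3312 on the DMA-tumor array and 812 on the Control array (4.08-fold). Prss8, or prostasin, an activator of the epithelial sodium channel, was called lower, with 9761 on the DMA-tumor array and 46624 on the Control array (4.78-fold).

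**Figure D4:**
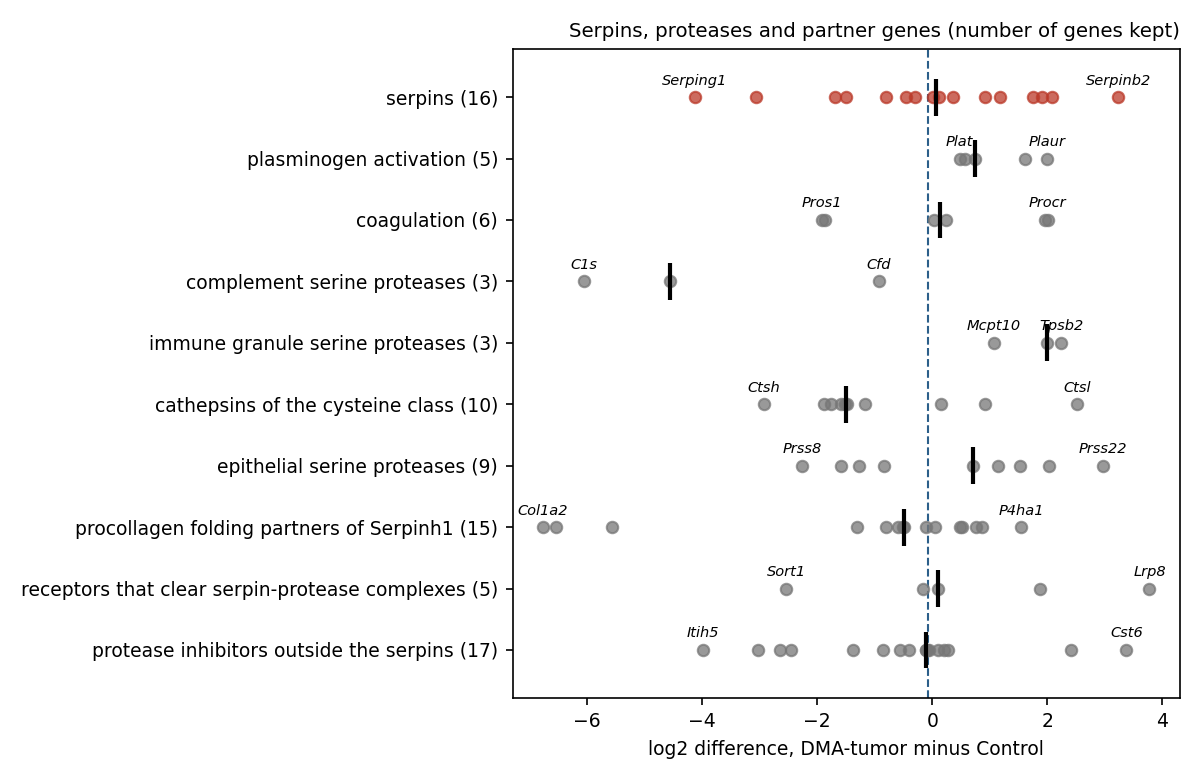
Log2 difference, DMA-tumor minus Control, of the kept genes of the serpin family (red) and of 9 lists of target proteases, clients, receptors and other inhibitors (grey), with the number of kept genes in brackets, each list's median as a black bar and the median of all kept genes (-0.08) as a dashed line. The lowest and highest gene of each list is named, and complement proteases (median -4.56) and plasminogen activation (median 0.75) lie on opposite sides of the line.

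Protease inhibitors of other folds were measured beside the serpins. Of 33 genes 17 were kept, 2 were called higher, beside 2.53% of all kept genes, and 4 lower, beside 2.37%, and the median log2 difference was -0.12. Among the 4, Itih5 and A2m were kept through the Control array alone and so could only be lower on the DMA-tumor array. Cst6, a cystatin that inhibits legumain and cathepsin L, was 10.4-fold higher, with 13486 on the DMA-tumor array and 1302 on the Control array. Spink5, which inhibits kallikreins of the epidermis, was 5.31-fold higher, with 836 on the DMA-tumor array and 157 on the Control array. Tfpi, the inhibitor of the tissue factor pathway, was 8.16-fold lower, with 412 on the DMA-tumor array and 3359 on the Control array. As in the serpins, members differed in both directions, and the metalloprotease inhibitors Timp1, Timp2 and Timp3 differed by at most 1.20-fold.

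**Figure D5:**
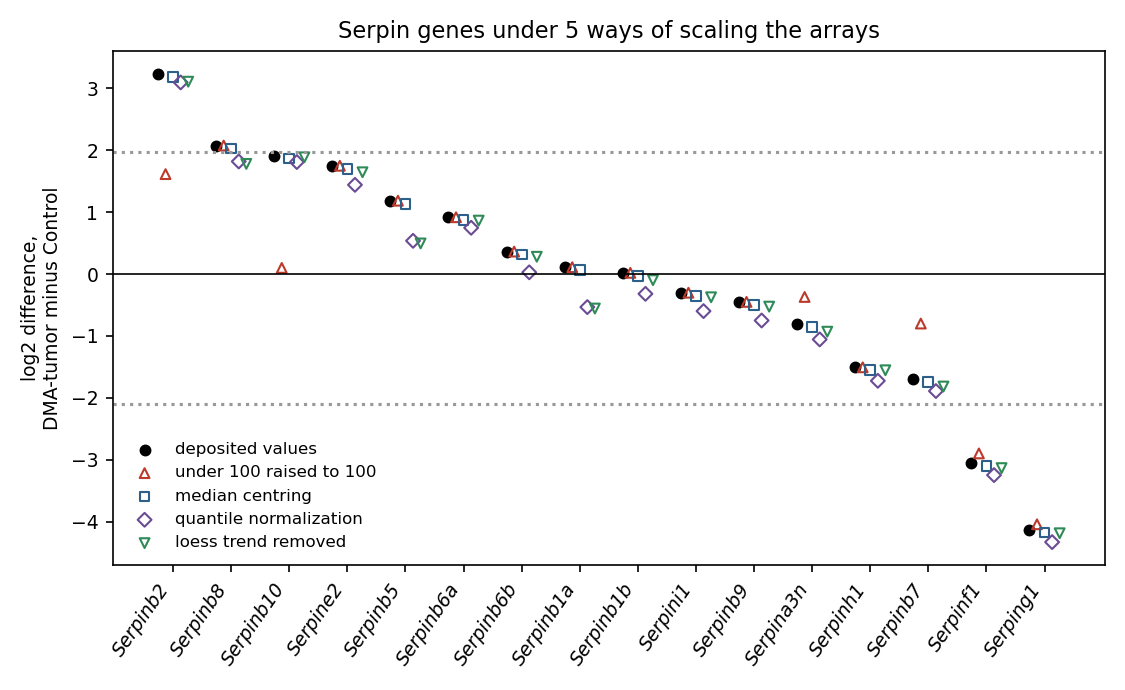
Log2 difference, DMA-tumor minus Control, of the kept serpin genes under each processing setting that changes it, with dotted lines at the differences a call required in the analysis as reported (1.97 and -2.11). Serpinf1 and Serping1 stay beyond the lower line in every setting shown, whereas Serpinb1a and Serpinb1b cross 0.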

How the data were processed

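RNA of 2 pools (6 carcinomas and 5 control bladders) was hybridised to 1 array each. The values as deposited were linear probe set intensity values between 5.60 and 820532, and per the labels the authors used a whole-transcript labelling kit. According to the processing notes, Affymetrix Expression Console 1.4.1 and RMA were run, whereas the methods name a 3'-based array, global median normalization and removal of signals under 100. Which normalization was applied is therefore unsettled, and the genome build is not given in the sources used here. Array medians were 52.3 for DMA-tumor and 50.6 for Control, and 36.0% and 33.0% of probe sets reached 100 on the DMA-tumor and Control arrays.

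Gene symbols came from the annotation of the platform. Of 68842 probe sets, 23446 had 1 symbol, 505 had several and 44891 had none listed. Of the serpin genes, 46 of 46 were found in the RefSeq gene table by Entrez ID. A serpin probe set with 2 symbols was not used. Log2 of each value was taken, genes with at least 100 on 1 or both arrays were kept, and Z-scores used the mean (-0.07) and SD (1.02) of all kept genes. Signals under 100 were raised to 100 in printed folds, which are then lower bounds. Every kept serpin is named, and from other lists up to 4 kept genes with the largest difference could be. A few low genes of those lists (Plg, Gzmb, Elane, Ctsg, Prtn3 and Alb) were named after their values were seen. So were Plat, Furin, Klkb1, Hgfac, Ctsw, Fkbp10, Cst3, Lum, Pdgfra, the type IV and V collagens, the Timp genes, P3h1 and P4hb. The members and lists were chosen with earlier results of these data known.

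Alternatives were other filters on signal, low values raised to 100, median centring, quantile normalization, loess removal (span 0.3), averaging over a gene's probe sets and Z-scores within 20 signal bins. The calling steps were also run on simulated arrays with noise and planted differences of set size. Those settings were not fitted to the spread of these data, so the simulation gives no error rate for the calls here. Scripts ran in Python 3.11.15 with pandas 2.3.3, numpy 2.4.6, matplotlib 3.10.9 and statsmodels 0.14.6.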

Additional observations from a re-analysis of the deposited data

How the results depend on the processing

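Serpinf1 and Serping1 were called lower under each setting except the filter of 100 on both arrays, where neither was kept and 0 serpins were called lower. The number called higher was 4 without a filter and with a filter of 32 (Serpinb10 and Serpine2 in addition), and 1 with low values raised to 100 (Serpinb8) or with Z-scores within signal bins (Serpinb2). With at least 100 on both arrays, 3 serpins were at least 2-fold higher and 1 at least 2-fold lower, since fewer genes were tested. Quantile normalization shifted the median of all kept genes by -0.26 and loess removal by -0.11. Relative to all kept genes, the serpin median was 0.15 as reported, -0.09 after quantile normalization and -0.05 after loess removal, and clade B was 0.72 as reported, 0.62 and 0.58 under the same settings. The serpin median itself was -0.43 after quantile normalization. The clade B median was 0.13 without a filter, 0.29 with a filter of 32, 0.24 with low values raised and 0.28 after quantile normalization. The median of the secreted clades was -0.049 without a filter, -0.098 with a filter of 32, -0.37 with low values raised, -1.68 with the mean of probe sets and 0.72 with at least 100 on both arrays, a change of sign that leaves Serpine2 and Serpini1 alone in it. Apart from filters and construction, the cause of each shift was not tested. Of 79 values of single serpins under alternatives, 8 moved by more than the receptor SD, and many of the other 71 could not move by construction, such as values already over 100 when low values were raised. No replicate could be left out. No paired analysis was possible because each group had 1 array. Signals near or under 100 limit Serpinb2, Serpinb10, Serpinb7, Serpina3n, Serpinf1 and Serping1, whose folds are lower bounds. Serpine2 was just over 100 on the Control array (101). Its place among genes with at least 100 on both arrays rests on that value.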

Other observations

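Serpin and protease complexes are taken up by receptors of the low-density lipoprotein receptor family and by sortilin. Of 8 measured genes of this kind 5 were kept, with a median log2 difference of 0.10. Lrp8, a receptor that also binds reelin, was called higher, with 1899 on the DMA-tumor array and 139 on the Control array (13.7-fold). Lrp1, which takes up complexes of Serpine2 with its proteases, had signals of 7751 and 2126 on the DMA-tumor and Control arrays (log2 difference 1.87) and was not called. Sort1, or sortilin, was called lower, with 7005 on the DMA-tumor array and 40695 on the Control array (5.81-fold).

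The cofactors of serpins, mostly heparan sulfate proteoglycans, differed less. Of 7 genes 5 were kept and none was called, beside 2.53% of all kept genes called higher and 2.37% called lower. Hspg2, or perlecan, had 614 on the DMA-tumor array and 221 on the Control array (log2 difference 1.48), and Sdc4, a syndecan of the cell surface, had signals of 9927 and 18545 on the DMA-tumor and Control arrays (-0.90). The hormone carriers Serpina6 and Serpina7 were low on both arrays, whereas Hsd11b2, which inactivates corticosteroids in tissue, was called lower, with 363 on the DMA-tumor array and 2950.0 on the Control array (8.13-fold).

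Among inhibitors of other folds, Itih5, an inhibitor heavy chain that binds hyaluronan, had 74.7 on the DMA-tumor array and 1182 on the Control array, at least 11.8-fold lower. A2m, a broad protease trap of plasma, had 45.1 on the DMA-tumor array and 283 on the Control array, at least 2.83-fold lower. Cst3, or cystatin C, was 5.47-fold lower, with 3025 on the DMA-tumor array and 16553 on the Control array. All 3 were called lower.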
